A study of Mus musculus with 23 samples.

Results

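The tongue of mice housed in an ordinary animal facility (FC, 2 arrays) was compared with the tongue of mice housed on the ground in a copy of the flight habitat of the BION-M1 biosatellite (BG, 3 arrays). These 5 arrays were chosen by tissue and housing from the sample labels, out of 23 in the series, and all 22626 probe sets were tested. All mice were male and of the C57/BL6 background (C57BL/N6 in the methods), 19 to 20 weeks old, and were kept for 30 days in their housing. Neither group was flown, so the labelled difference between FC and BG is the housing, and this is the control comparison that accompanies those with flown mice. The 3 tongue arrays of flown mice (BF) and the 10 arrays of *longissimus dorsi*, a back muscle, from FC and BG mice (5 each) are shown for comparison, and all 23 arrays, 5 more of *longissimus dorsi* from BF mice among them, entered 1 model that estimated a shared spread. Each array held RNA of 1 tissue sample, and neither the labels nor the methods state whether tongue and back muscle came from the same mice. The p-values below therefore set the differences against the spread between arrays within the groups of that model, which may be technical in part.

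The tongue is a striated muscle covered by a stratified squamous epithelium that renews itself throughout life. Dividing cells lie in the basal layer, and their daughters move outward while they build keratin filaments and cornified envelopes. A piece of tongue thus gives RNA of muscle fibres and of dividing and maturing epithelial cells together, beside small shares of vessels, nerves, connective tissue and fat. Housing can reach such a tissue in many ways, among them feeding, the daily rhythm, activity and contact with food. Muscle adjusts its stores of glycogen and its choice of fuel to feeding, and most cells carry a circadian clock in which the activators Clock and Arntl drive the Per and Cry repressors.

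The values are log2 expression levels per probe set after RMA (Robust Multichip Average), on which 1 unit stands for a 2-fold change. Array medians ranged from 6.53 to 6.61 over the 8 tongue arrays. Over all probe sets, deviations from the group mean had an SD of 0.103 on both FC arrays and 0.161 to 0.198 on the BG arrays. The 2 FC values are equal by construction, and SDs around means of 2 and of 3 arrays are not directly comparable. Both parts of the tissue were present: Krt13, a keratin of the oral lining, had values of 13.6 to 13.9 on all tongue arrays and of 3.22 to 4.35 in *longissimus dorsi*, while Ckm, the muscle creatine kinase, had 13.7 to 14.1 in tongue. Muc5b, a salivary mucin, was at 5.47 to 5.86, no higher than in back muscle.

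Of the 22626 probe sets, 2139 (9.45%) differed between FC and BG at an adjusted p under 0.05 (limma with Benjamini-Hochberg adjustment), 1160 of them higher in FC (5.13%) and 979 lower (4.33%). A change of more than 2-fold beside that p was found for 306 (1.35%), of which 158 (0.698%) were higher and 148 (0.654%) lower. The median log2 change of all probe sets was 0.0191. These counts depended on single arrays. Without FC replicate 1, 125 probe sets passed the adjusted p and 86 also the 2-fold threshold. The number past the adjusted p was 685 when FC replicate 2 was left out, 670 for BG replicate 2 (185 over 2-fold), 1347 for BG replicate 1 and 2226 for BG replicate 3. Leaving out either FC array leaves a single one, which the fit assumes to vary like the other groups. The named probe sets counted next are those picked by the rules given under processing. Further examples from the lists and genes chosen after their values were seen are not among them. Of 94 probe sets named here that passed, 14 also passed with each of the 5 arrays left out in turn. These were probe sets of Foxp1, Ndel1, Fgfr1op2, Tef, Nisch, Sfswap, Fubp1, Gdap10, Itgb4, Ryr1, Ccnb2, Ube2c, Aspm and Mrpl27.

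Genes of mitosis were lower in FC. Of 52 measured genes of mitosis and cytokinesis, 16 were lower and 1, Foxm1, was higher, with a median log2 change of -0.58. Among all 12393 genes, measured by the brightest probe set of each, 4.18% were lower and 5.72% higher, and the median was 0.0265. FC lay below BG without overlap in 24 of the 52, and in 20.2% of all genes. In all, 49 of the 52 estimates were negative. The list was drawn up with earlier results of these data known. Several of its genes, Ccnb2 and Ect2 among them, are in the study's table for tongue of flown mice, which was picked with these BG arrays. The counts therefore describe this list and are no independent evidence. The 16 decreases ranged from 0.66 to 2.02 on the log2 scale, and 13 were over 2-fold. The promoters of 4 of the largest decreases are shown because mitosis genes are known to share short promoter elements through which they are switched on together late in the cell cycle. The sequences are the RefSeq windows of 300 bases (250 before the transcription start and 50 after it, build GRCm38.p6, written 5′ to 3′ on the strand of the gene), at chr9:70421505-70421804 (minus strand) for Ccnb2, chr3:27153829-27154128 (minus strand) for 1 of 2 windows of Ect2, chr2:164769679-164769978 (plus strand) for Ube2c and chr5:30666636-30666935 (plus strand) for Cenpa. Capitals mark the cell cycle homology region TTTGAA and the CCAAT box, each on either strand.
Ccnb2: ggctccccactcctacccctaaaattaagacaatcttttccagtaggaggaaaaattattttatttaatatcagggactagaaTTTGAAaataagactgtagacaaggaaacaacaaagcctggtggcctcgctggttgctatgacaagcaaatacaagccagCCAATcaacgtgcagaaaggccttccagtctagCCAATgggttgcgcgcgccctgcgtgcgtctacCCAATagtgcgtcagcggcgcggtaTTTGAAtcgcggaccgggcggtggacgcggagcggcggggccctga
Ect2: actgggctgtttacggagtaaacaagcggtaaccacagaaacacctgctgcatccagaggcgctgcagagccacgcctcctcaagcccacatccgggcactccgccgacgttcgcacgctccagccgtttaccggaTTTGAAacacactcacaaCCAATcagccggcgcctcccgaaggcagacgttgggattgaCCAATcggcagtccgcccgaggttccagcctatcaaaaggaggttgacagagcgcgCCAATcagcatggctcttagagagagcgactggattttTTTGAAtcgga
Ube2c: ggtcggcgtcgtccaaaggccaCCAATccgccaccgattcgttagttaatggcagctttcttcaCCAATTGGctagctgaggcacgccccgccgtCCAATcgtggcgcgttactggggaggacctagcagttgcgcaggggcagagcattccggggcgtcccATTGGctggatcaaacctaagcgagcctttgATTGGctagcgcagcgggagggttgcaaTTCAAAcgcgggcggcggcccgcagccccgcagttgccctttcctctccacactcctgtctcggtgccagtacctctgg
Cenpa: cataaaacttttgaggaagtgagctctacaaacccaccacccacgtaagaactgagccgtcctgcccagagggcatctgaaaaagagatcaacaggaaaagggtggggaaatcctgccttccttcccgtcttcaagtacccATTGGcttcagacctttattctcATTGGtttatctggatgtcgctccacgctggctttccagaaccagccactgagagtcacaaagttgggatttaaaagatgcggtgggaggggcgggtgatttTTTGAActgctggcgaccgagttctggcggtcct
A window was found for 15 of the 16 genes. TTTGAA stood in 10 of these (66.7%), CCAAT in 9 (60.0%) and both in 8 (53.3%), compared with 17.9% and 37.4% of all promoter windows, or 20.2% and 41.1% of all genes with a window, for TTTGAA and CCAAT. Both stood in 7.97% of all genes with a window. The measured mitosis genes that did not pass as lower held TTTGAA in 20 of 28 (71.4%) and CCAAT in 22 (78.6%), so neither element was more frequent in the 16 than in the rest of the list. These matches describe the letters of the windows only.

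Ccnb2, the cyclin B2 that carries cells into mitosis, had values of 6.16 and 5.92 in FC and of 8.63, 8.47 and 7.09 in BG. Both FC arrays lay below all BG arrays, and BG replicate 3 lay nearest to them. The difference was -2.02 (standard error 0.283, adjusted p = 0.000217). Ect2, which directs the contractile ring of cytokinesis, was at 4.90 and 5.33 in FC and at 7.45, 7.43 and 6.38 in BG (-1.97, standard error 0.373, adjusted p = 0.00284). Ube2c, the ubiquitin-conjugating enzyme of the anaphase-promoting complex, was at 5.74 and 5.41 against 7.61, 7.45 and 6.52 (-1.62, standard error 0.268, adjusted p = 0.00109). In both genes the groups did not overlap, and the lowest BG array was again replicate 3. Cenpa, the histone variant of the centromere, had values of 5.81 and 5.87 in FC and of 8.19, 7.80 and 6.38 in BG, a difference of -1.61 (adjusted p = 0.00317). Aspm, a spindle pole protein, fell by 1.50, and Trim59, a ubiquitin ligase, by 1.08. The other decreases included Cep55, Nusap1, Melk, Cenpf, Anln, Cks2 and Mad2l1.

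Across the 16 genes, BG replicate 3 was the lowest BG array in 14. Leaving out BG replicate 3 raised the number of lower mitosis genes to 25, whereas 7 passed when BG replicate 2 was left out, 5 for FC replicate 1 and 8 for FC replicate 2. In a fit of the tongue arrays alone, 8 passed. Only 6 of the 52 genes lie among the brighter probe sets (a mean at or above the median of all), and none of these was lower. The mean level of the 52 genes was 6.24 and 6.30 in FC and 7.03, 7.11 and 6.50 in BG. Mki67, the proliferation antigen Ki-67, was at 7.65 and 7.84 in FC and at 8.45, 8.73 and 8.01 in BG, and did not pass (adjusted p = 0.0809). Kif2c, a kinesin of the centromere, and Cdc20, the activator of the anaphase-promoting complex, had probe sets that disagreed: 2 of 4 for Kif2c were lower (by 1.43 and 0.67) and the brightest differed by 0.00, and 1 of 3 for Cdc20 was lower (by 1.08).

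**Figure D1:**
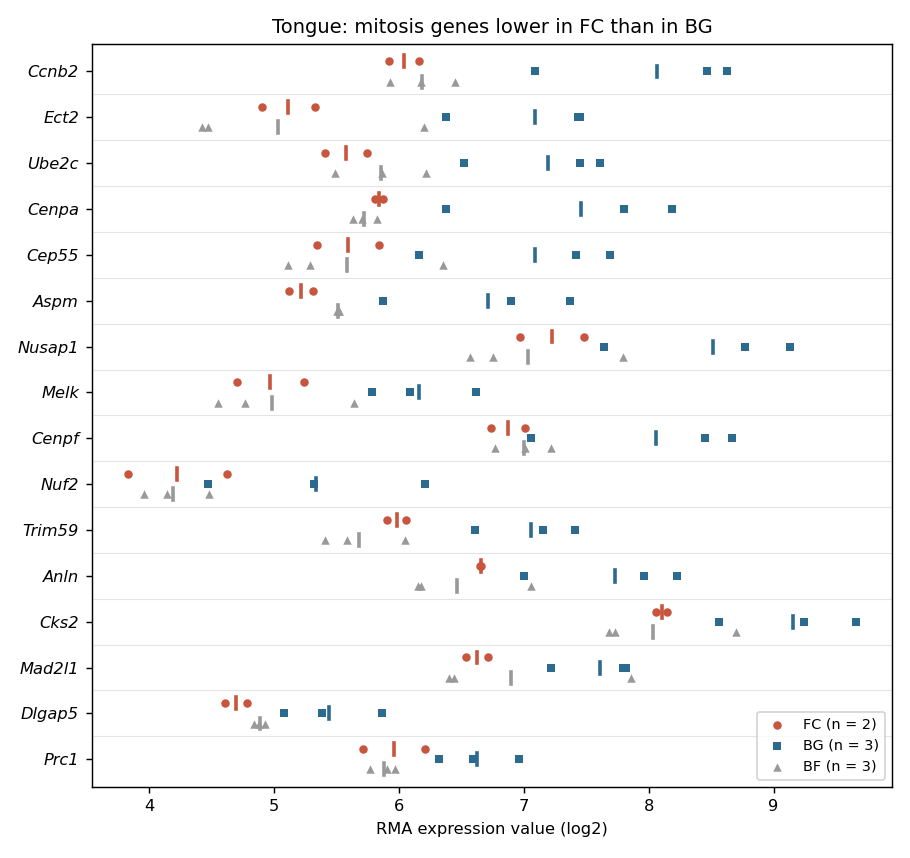
Log2 RMA values of the 16 mitosis genes that were lower in FC than in BG, 1 row per gene; circles are FC arrays (n = 2), squares BG arrays (n = 3), triangles BF arrays (n = 3) and short vertical bars group means. The BG mean is the highest of the means in each row, with BG replicate 3 the lowest BG array in 14 of the rows, and the BF means lie near those of FC.

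In a bulk sample, fewer cells of a type and less RNA per cell cannot be told apart. Krt14 and Trp63, markers of the basal epithelium where the dividing cells lie, did not pass, whereas Itgb4, which basal cells also express, was higher in FC by 1.15. Krt14, a keratin of the basal layer, was on its listed probe set at 11.73 and 11.79 in FC and at 11.61, 11.97 and 11.63 in BG, and Trp63, the transcription factor of basal cells, at 9.65 and 10.08 against 9.92, 9.85 and 9.84. The mean level of 20 keratins was 9.85 and 9.79 in FC and 9.83 to 9.88 in BG. Genes of DNA replication and S phase did not show the pattern of the mitosis list. Of 42 measured, 5 were higher and 2 lower (5.72% and 4.18% of all genes), with a median of 0.17. Higher were Uhrf1, which maintains DNA methylation behind the fork (7.18 and 7.42 in FC, 6.51, 5.42 and 6.81 in BG), Cdc25a, Lig1, Pole and Mcm2, by 0.52 to 1.05. Dbf4, the activating subunit of the kinase that fires origins, and Rfc4, a clamp loader, were lower by 0.75 and 0.87.

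Mitosis genes were low in the flown mice too. BF values were 6.18, 6.45 and 5.93 for Ccnb2 and 5.82, 5.70 and 5.63 for Cenpa, close to FC. Against the same BG arrays, 20 of the 52 genes were lower in BF and none was higher, and 13 of the 16 above were among them. Among all genes 0.508% were lower and 0.323% higher in BF. Since both comparisons rest on the same 3 BG arrays, they are not independent. In *longissimus dorsi*, the 16 genes differed between FC and BG by -0.49 to 0.23, and none passed. Mean levels there were low, for example 4.59 in both FC and BG for Ccnb2, 3.84 and 3.82 for Ect2 and 3.44 and 3.43 for Trim59. This leaves little room to see a decrease. For Ccnb2, Ube2c and Cenpa the difference between the muscles was itself past the threshold.

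In the epithelium, 3 of 38 genes of junctions and cornification (7.89%) were higher, 1 (2.63%) was lower, and the median was 0.02. Among all genes 5.72% were higher and 4.18% lower, so the counts of this list were near those shares, and the genes below are single examples. Itgb4, the integrin of hemidesmosomes, was at 9.25 and 9.21 in FC and at 8.15, 7.88 and 8.20 in BG, so that every FC array lay above every BG array (1.15, standard error 0.192, adjusted p = 0.00116). Evpl, or envoplakin, which links the cornified envelope to keratin, was at 11.23 and 10.99 against 10.22, 10.12 and 10.11 (0.96, standard error 0.187, adjusted p = 0.00351). Flg, the filaggrin of cornified cells, was higher by 0.83, and Epcam, an epithelial adhesion molecule, was lower by 0.82. Plec, the plectin that ties keratin and desmin filaments to membranes in epithelium and muscle, was at 10.08 and 9.72 in FC and at 7.90, 8.12 and 8.09 in BG, a rise of 1.87 seen in both of its probe sets. Plec rose in *longissimus dorsi* as well, by 1.12 (adjusted p = 0.00657). Of 20 keratins, Krt84, a hair-type keratin, and Krt10, a keratin of maturing layers, were higher by 0.67 and 0.50, and Krt17, a keratin of stressed epithelium, was lower by 0.77. Krt17 was lower still in BF (by 1.18 against the same BG arrays).

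The largest single increase was that of Foxp1, a forkhead transcription factor, at 6.59 and 6.39 in FC and at 4.49, 3.86 and 4.37 in BG (2.25, standard error 0.201, adjusted p = 1.35e-06). The BF arrays lay at 4.93, 4.48 and 4.64, near BG. This was 1 of 7 Foxp1 probe sets, the other 6 of which changed by 0.03 to 0.56 and did not pass. Ndel1, which regulates the motor dynein, had 8.08 and 7.67 in FC against 5.93, 5.99 and 5.51 in BG on 1 of 2 probe sets (2.07, standard error 0.218, adjusted p = 8.2e-06), and its other, brighter probe set differed by 0.00. Fgfr1op2 behaved alike, with a rise of 1.65 on 1 of 3 probe sets and changes of -0.15 and -0.48 on the others. These rises therefore belong to single probe sets rather than to all those that name the gene. More of the probe sets moved together for Nisch, an imidazoline receptor homologue that binds integrin (3 of 4, up to 1.89), Sfswap, a splicing regulator (2 of 3, up to 1.71), Nfib (3 of 4, up to 1.67) and Fubp1, which binds upstream of Myc (2 of 4, up to 1.65). Gdap10, with 1 probe set, rose by 1.76.

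**Figure D2:**
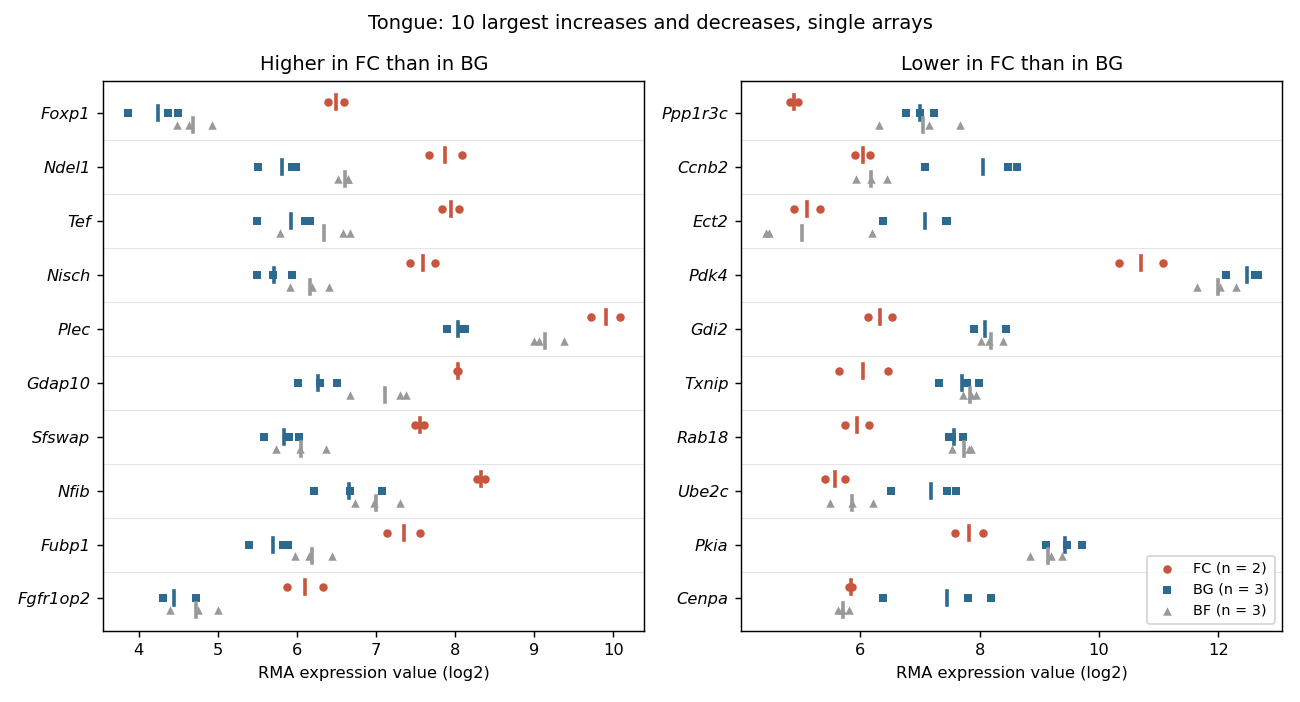
Log2 RMA values of the 10 largest increases (left) and decreases (right) in tongue among probe sets that named 1 gene, passed the adjusted p and did not overlap between FC and BG; circles are FC arrays (n = 2), squares BG arrays (n = 3), triangles BF arrays (n = 3) and short vertical bars group means. BF arrays lie near BG for Foxp1 and Ppp1r3c and near FC for Ccnb2, Ect2, Ube2c and Cenpa.

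Of the 10 largest decreases, 4 belonged to mitosis genes and 3 to genes that set fuel and glycogen use. Ppp1r3c, a subunit that targets a phosphatase to glycogen and favours its synthesis, was at 4.82 and 4.96 in FC and at 7.23, 6.76 and 7.0 in BG (-2.10, standard error 0.489, adjusted p = 0.0106). Its brighter probe set fell by 1.52, from 11.63, 10.69 and 11.31 in BG to 9.68 and 9.70 in FC. Both probe sets were without overlap. Pdk4, the kinase that inhibits pyruvate dehydrogenase in fasting, was at 10.34 and 11.07 in FC and at 12.62, 12.13 and 12.66 in BG (-1.76, standard error 0.461, adjusted p = 0.0191). Txnip, an inhibitor of glucose uptake, fell by 1.65 on 1 of 2 probe sets, whereas its brighter one had 10.12 and 10.90 in FC and 11.14, 10.38 and 11.16 in BG and did not pass. On these probe sets BF lay near BG, with changes against the same BG arrays of 0.05 for Ppp1r3c, -0.48 for Pdk4 and 0.14 for Txnip, none past the threshold. In *longissimus dorsi* Txnip fell by 1.17 (adjusted p = 0.00148), while Pdk4 changed by 0.03. The other 3 were Gdi2 and Rab18, which serve vesicle traffic through Rab proteins, and Pkia, an inhibitor of protein kinase A. Gdi2 was at 6.13 and 6.54 in FC and at 7.91, 8.45 and 7.90 in BG on 1 of 2 lower probe sets of 6 (-1.75), Rab18 at 5.75 and 6.14 against 7.53, 7.72 and 7.48 on 1 of 2 probe sets (-1.63), and Pkia at 7.58 and 8.06 against 9.47, 9.72 and 9.12 (-1.62, with -0.72 on its brighter probe set).

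Among insulin signalling and glucose uptake genes, 6 of 28 were higher (21.4%) and 2 lower (7.14%), with a median of 0.34, compared with 5.72% and 4.18% of all genes. The 2 lower ones were Pdk4 and Ppp1r3c, and the 6 higher ones were Igfbp5, an IGF-binding protein (0.85), Gys1, the glycogen synthase of muscle (0.70), Pdk2, Hk2, the muscle hexokinase (0.60), Gsk3a and Igf2. Gys1 was at 10.84 and 10.63 in FC and at 10.22, 9.79 and 10.10 in BG on its brighter probe set. The other Gys1 probe set went the opposite way without passing, at 6.50 and 6.72 in FC and at 7.02, 7.05 and 7.08 in BG (-0.44). Of 17 glycolytic genes, Pfkm, the muscle phosphofructokinase, and Hk2 were higher, and the median was -0.03. Pfkm was at 12.91 and 12.75 against 12.15, 12.16 and 12.31 (0.62, standard error 0.131, adjusted p = 0.00568). Igfbp5, Gys1, Pdk2, Hk2 and Pfkm also passed in *longissimus dorsi*, in the same direction. Of 29 genes of fatty acid oxidation and PPAR targets, Pdk4 and Echs1, an enzyme of mitochondrial beta-oxidation, were lower and none was higher. Angptl4, a lipase inhibitor raised in fasting, was at 5.80 and 6.78 in FC and at 8.47, 7.01 and 8.47 in BG (adjusted p = 0.053). Of 30 glucocorticoid-responsive genes, Pdk4 alone passed, and of 20 FoxO targets and atrophy genes, Bnip3 alone, lower by 0.69.

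Several subunits of the proteasome and of the mitochondrial ribosome were lower in FC. Of 31 proteasome subunits, 13 were lower (by 0.42 to 0.78), none was higher and 18 did not pass, with a median of -0.42, compared with 4.18% lower and 5.72% higher among all genes. FC lay below BG without overlap in 22 of the 31, and in 20.2% of all genes. Psma7, of the outer ring of the core, was at 10.04 and 10.11 in FC and at 10.95, 11.09 and 10.54 in BG (-0.78, standard error 0.184, adjusted p = 0.0111). Psmb5, the chymotrypsin-like catalytic subunit, was at 10.70 and 10.73 against 11.37, 11.20 and 11.12 (-0.52, standard error 0.104, adjusted p = 0.00435). Psmd7, of the lid, was at 8.64 and 8.94 against 9.39, 9.51 and 9.43. The mean level of the 31 subunits was 10.39 and 10.38 in FC and 10.75, 10.86 and 10.64 in BG, and both FC arrays lay below each BG array. The count fell to 0 when FC replicate 1 was left out, to 2 for FC replicate 2, to 2 for BG replicate 2, to 7 for BG replicate 1, and to 8 with the tongue arrays alone.

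In the mitochondrial ribosome, 12 of 44 measured proteins were lower (by 0.48 to 1.25), none was higher and 32 did not pass, with a median of -0.45 (4.18% of all genes were lower). Mrpl27 was at 9.11 and 9.02 in FC and at 10.44, 10.27 and 10.23 in BG (-1.25, standard error 0.181, adjusted p = 0.000337). Mrpl19 was at 7.18 and 7.23 against 8.39, 8.49 and 8.17 (-1.15, standard error 0.219, adjusted p = 0.003). Mrpl11 and Mrpl17 were lower by 0.58 and 0.48. The count was 1 when FC replicate 1 was left out, 3 for FC replicate 2, 5 for BG replicate 2 and 6 for BG replicate 1. Of 44 subunits of oxidative phosphorylation, 5 were lower and none was higher, among them Sdhd of complex II (-0.69), Atp5l of the ATP synthase (-0.55), Ndufv2 of complex I (-0.48) and Uqcrh of complex III (-0.46). Of 31 cytosolic ribosomal proteins, Rpl35 alone was lower, by 0.38, although 27 of the 31 estimates were negative (median -0.18). Median centring of the arrays moved the median of all probe sets from 0.0191 to -0.03 and the share of higher ones among those past the adjusted p from 54.2% to 45%.

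**Figure D3:**
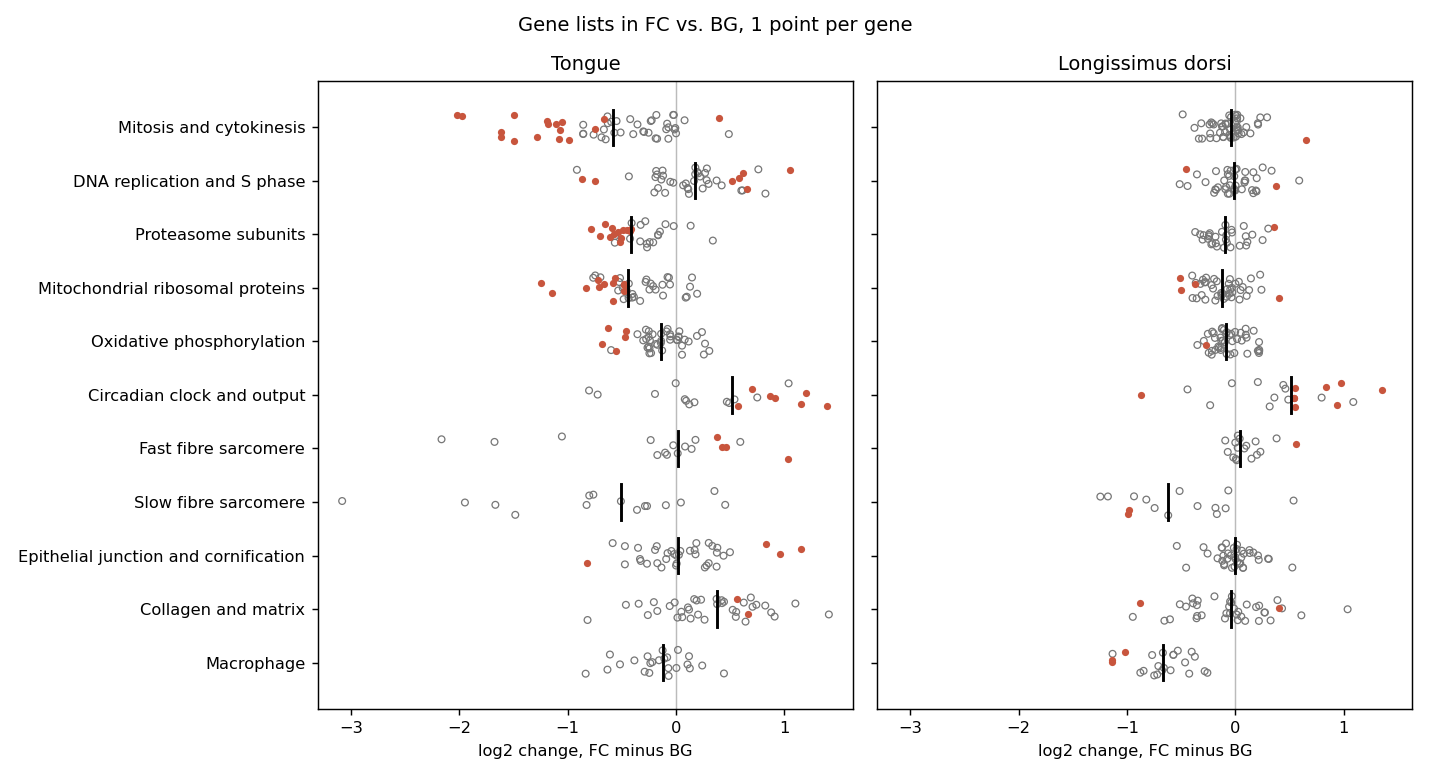
Log2 change, FC minus BG, of each measured gene of 11 gene lists in tongue (left) and *longissimus dorsi* (right), 1 point per gene; filled points passed an adjusted p of 0.05 and black bars are list medians. In tongue, filled points lie to the left for mitosis (16), proteasome (13) and mitochondrial ribosome (12), and to the right for the clock (7), and in *longissimus dorsi* the medians of mitosis, proteasome and mitochondrial ribosome are -0.04, -0.09 and -0.12.

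In muscle fibres, 4 of 17 genes of the fast type (23.5%) were higher and none passed as lower (5.72% of all genes were higher). The median was 0.01, and 8 of the 17 estimates were negative, down to -2.17. Ryr1, the calcium release channel, was at 12.48 and 12.36 in FC and at 11.47, 11.20 and 11.49 in BG (1.03, standard error 0.144, adjusted p = 0.000217), and was also higher in BF (by 0.75) and in *longissimus dorsi* of FC (by 0.56). Myh4, the myosin heavy chain of type IIB fibres, was at 14.02 and 14.03 against 13.58, 13.48 and 13.74 (0.43), and Myh1 and Atp2a1 rose by 0.46 and 0.38. No gene of 15 of slow fibres passed in limma (5 had an unadjusted p under 0.05), and their median was -0.51. Myl2, the slow regulatory light chain, was at 5.39 and 3.94 in FC and at 9.12, 3.95 and 10.18 in BG, so that BG replicate 2 lay with FC and the other BG arrays far above. Tnnc1 (slow troponin C) showed 5.90 and 6.13 against 8.17, 6.51 and 9.22. Car3, the carbonic anhydrase of slow fibres and fat, had the largest difference of any probe set, -3.43, and the same split (6.59 and 6.76 against 11.24, 6.66 and 12.40, adjusted p = 0.0715), as had the fat hormone Adipoq (3.93 and 3.74 against 6.71, 3.58 and 6.95). The mean level of 17 fat cell markers was 7.29 and 7.20 in FC and 7.91, 7.16 and 7.86 in BG. The mean level of the 17 fast fibre genes was 11.99 and 11.96 in FC and 12.20, 11.68 and 12.44 in BG, with replicate 2 again the lowest BG array. Slow fibre and fat markers and the mean of the fast genes thus moved together among the BG arrays, and their part in other differences was not tested.

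Clock genes were higher in FC. Of 20 genes of the clock and its output, 7 were higher and none lower, with a median of 0.51, compared with 5.72% of all genes higher. Hlf, a PAR-type output factor, was at 8.37 and 8.39 in FC and at 7.20, 6.85 and 7.48 in BG (1.20, standard error 0.216, adjusted p = 0.002). Per2, a repressor, was at 8.30 and 8.43 against 7.02, 6.39 and 7.50 (1.39, standard error 0.291, adjusted p = 0.00552), 1 of 2 probe sets. Cry2, another repressor, was higher by 0.91, Per3 by 1.15, Tef, also a PAR-type factor, by 0.87 on its brightest and 2.02 on another probe set, and the casein kinases Csnk1d and Csnk1e by 0.70 and 0.57. FC lay above BG without overlap in 12 of the 20, and in 26.3% of all genes. The activators had opposite estimates that did not pass: Clock was at 8.74 and 9.0 in FC and at 9.63, 9.85 and 9.31 in BG (adjusted p = 0.0517), and Arntl at 5.84 and 5.55 against 6.93, 6.50 and 6.06 (adjusted p = 0.194). Nr1d1, which encodes REV-ERB alpha, was at 7.34 and 7.35 against 7.27, 7.48 and 7.29. The count of higher clock genes was 0 when FC replicate 1 was left out, 1 for FC replicate 2 and 2 for BG replicate 2.

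Promoters of Tef and Per3 are shown, the only ones among 5 higher clock genes with a window to hold either of the elements through which clock factors act, the E-box CACGTG (bound by Clock with Arntl) and the D-box TTATGTAA (bound by PAR-type factors), here in capitals. They lie at chr15:81802423-81802722 (plus strand, 1 of 2 windows) and chr4:151044616-151044915 (minus strand) of GRCm38.p6, as above.
Tef: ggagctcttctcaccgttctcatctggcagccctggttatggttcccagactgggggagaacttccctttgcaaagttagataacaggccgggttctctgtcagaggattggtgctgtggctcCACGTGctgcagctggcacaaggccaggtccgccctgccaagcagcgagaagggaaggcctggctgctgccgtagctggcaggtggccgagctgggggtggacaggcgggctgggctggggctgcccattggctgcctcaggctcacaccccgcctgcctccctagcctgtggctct
Per3: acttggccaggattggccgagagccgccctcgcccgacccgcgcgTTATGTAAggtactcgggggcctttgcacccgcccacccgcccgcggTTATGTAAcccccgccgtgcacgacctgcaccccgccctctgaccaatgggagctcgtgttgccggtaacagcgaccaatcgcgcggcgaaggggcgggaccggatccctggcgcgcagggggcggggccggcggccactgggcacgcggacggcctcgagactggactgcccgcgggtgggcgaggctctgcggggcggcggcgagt
Of the 7 higher clock genes 5 had a window, and 1 of these held CACGTG and 1 held TTATGTAA. These stood in 7.15% and 0.938% of all promoter windows, or 8.09% and 1.11% of all genes with a window. Of the other clock genes, 3 of 12 with a window held CACGTG and 0 held TTATGTAA. With so few windows these are descriptions of these promoters alone.

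Clock genes were also higher in the other muscle. In *longissimus dorsi*, which shares no array with the tongue comparison, 8 clock genes were higher and 1 lower in FC (8.07% and 2.19% of all genes), and the median was 0.52. Per2 was higher there by 1.36, Cry2 by 0.98 and Hlf by 0.94, and 6 of the 7 genes that rose in tongue passed in both muscles. The difference between the muscles did not pass for any clock gene, which does not show that it was 0. The time of day at which each group was sampled is not given in the sources used here, and its part in the result was not tested. Over all probe sets, 634 passed in both muscles, 29.6% of the tongue list and 31.3% of the *longissimus dorsi* list (where 8.95% of all passed), and 631 of them moved in the same direction. By the test of the difference between muscles, 68 probe sets (0.301%) passed, 66 of which had also passed in tongue and 7 in *longissimus dorsi*. With tongue FC replicate 1 left out 7 passed, and with BG replicate 1, BG replicate 2 or FC replicate 2 left out 26, 27 and 29.

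**Figure D4:**
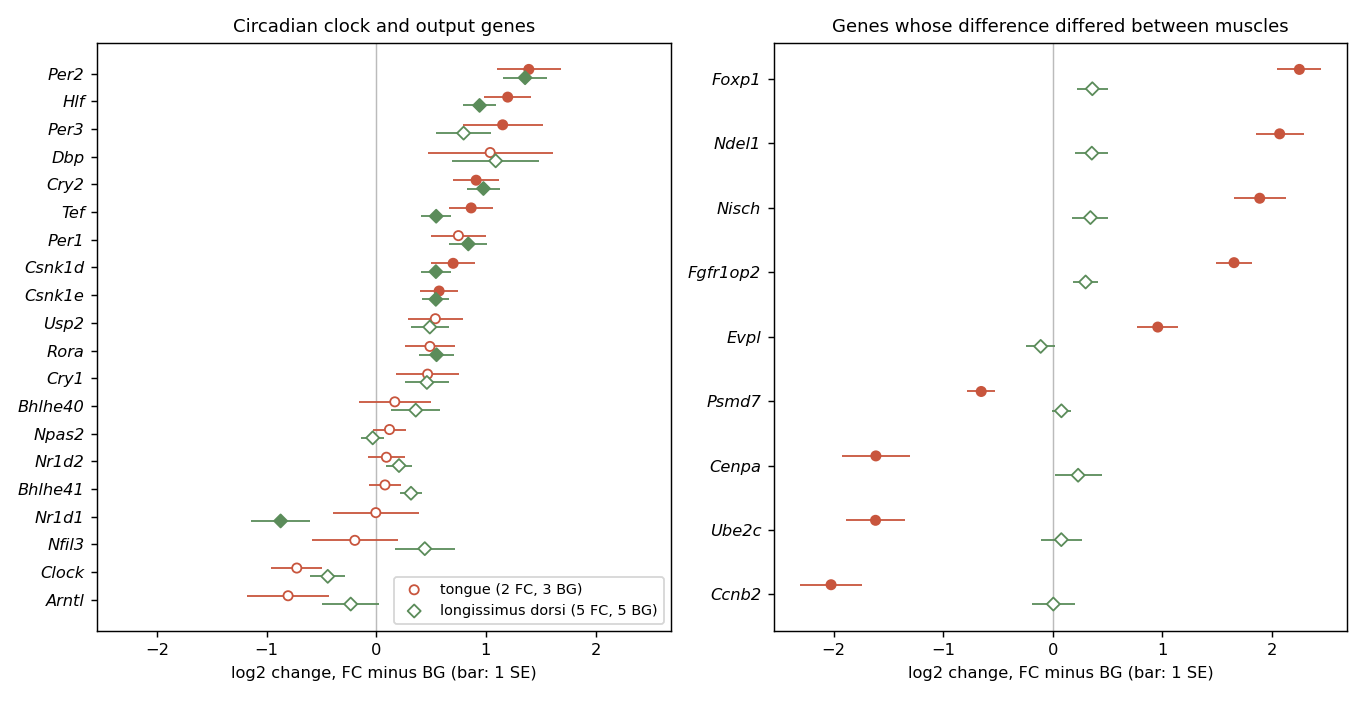
Log2 change, FC minus BG, with 1 standard error for 20 clock genes (left) and for named genes whose change differed between the muscles past the adjusted p (right); circles are tongue (2 FC and 3 BG arrays), diamonds *longissimus dorsi* (5 and 5), and filled symbols passed an adjusted p of 0.05 within that muscle. Of the clock genes, 7 passed as higher and 0 as lower in tongue, and 8 and 1 in *longissimus dorsi*. The estimates of Per2 are 1.39 in tongue and 1.36 in *longissimus dorsi*, whereas those of Foxp1 are 2.25 and 0.36.

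All 4 nuclear factor I genes, transcription factors active in muscle and epithelium, had positive estimates, and 3 passed (5.72% of all genes were higher). Nfic was at 10.83 and 10.60 in FC and at 9.19, 9.60 and 9.62 in BG on its brightest probe set (1.24, standard error 0.236, adjusted p = 0.003), and 3 of its 4 probe sets passed. Nfix rose by 1.06 and Nfib by 0.68. The BF arrays lay at 10.72, 10.23 and 10.48 for Nfic, above BG as well. Nfic, Krt17 and the mitosis genes Ccnb2, Ube2c, Aspm, Trim59, Ect2, Cenpa and Melk are among 27 probe sets that the study tabulated for tongue of flown mice. These were picked with the BG arrays used here and are no independent evidence of a direction. In FC vs. BG, 5 of the 27 were higher, 11 were lower and 11 did not pass. Synj2, a phosphoinositide phosphatase, overlapped between FC and BG and was higher in BF, with values of 6.24 and 6.45 in FC, 6.06, 6.31 and 6.36 in BG and 7.36, 7.43 and 7.67 in BF. Zbtb7a, a transcriptional repressor, lay at 8.07 and 7.43 in FC, at 6.38, 6.68 and 6.75 in BG and at 7.81, 7.35 and 7.95 in BF.

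Among genes of RNA and protein handling, 3 of 33 splicing factors (9.09%) were higher and none lower, on the brightest probe set of each. Of all genes 5.72% were higher, and over all 97 probe sets of the splicing factors 7 were higher and 7 lower. Snrnp70, the core protein of the U1 particle, was at 8.01 and 7.88 in FC and at 6.99, 6.81 and 6.96 in BG (1.03, standard error 0.195, adjusted p = 0.003), and Luc7l2 and Srsf4 rose by 0.81 and 0.74. Of 24 chaperones of the endoplasmic reticulum, Creld2 and Syvn1 were higher by 0.81 and 0.48, and of 23 heat shock proteins, Cct5, a subunit of the cytosolic chaperonin, was lower by 0.44. Of 25 antioxidant genes, Nqo1, a quinone reductase, and Gpx4, which reduces lipid peroxides, were lower. Nqo1 was at 8.90 and 8.88 in FC and at 10.01, 10.09 and 9.71 in BG, a difference of -1.05 without overlap. Of 21 genes of xenobiotic metabolism, Cyp1a1, the oxidase induced by aryl hydrocarbon ligands, was at 5.24 and 5.68 against 6.93, 6.50 and 6.41 (-1.15, adjusted p = 0.0316), Adh7, an alcohol dehydrogenase of the upper digestive tract, was lower by 0.65, and Fmo1 was higher by 0.83. Of 16 p53 targets, Fas alone passed, lower by 0.76. No gene passed in limma among 24 immediate early, 24 acute phase, 18 metal handling, 22 lipid and cholesterol synthesis and 19 salivary genes, of which 1, 4, 2, 2 and 0 had an unadjusted p under 0.05.

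In lists of connective tissue, vessels and nerves, 1 or 2 genes each were higher, where 5.72% of all genes were. Of 39 collagen and matrix genes, Lamc1, a laminin chain (0.66), and Timp3, an inhibitor of matrix proteases (0.56), were higher, none was lower, and the median was 0.37. Other Timp3 probe sets changed by 0.66, -0.36 and -0.39, and the negative ones did not pass. Col1a1 was at 8.84 and 8.47 in FC and at 7.0, 7.41 and 7.32 in BG and did not pass (adjusted p = 0.326). The mean level of 15 fibroblast markers was 9.98 and 9.95 in FC and 9.64 to 9.71 in BG, with no gene past the threshold (2 at an unadjusted p under 0.05). Kdr, the main VEGF receptor, was higher by 0.65, 1 of 22 endothelial genes. Sox10 and Cnp of Schwann cells were higher by 0.71 and 0.83, 2 of 15. Their other probe sets did not pass, at 0.31 and 0.04 for Sox10 and at 0.61 and -0.10 for Cnp. Notch3, a receptor of mural and satellite cells, was at 9.57 and 9.57 against 8.65, 8.30 and 8.51 (1.08, standard error 0.246, adjusted p = 0.00926). Lrp4 and Ncam1 of the neuromuscular junction were higher by 0.79 and 0.68. The other Ncam1 probe sets changed by -0.06 to 0.44 and did not pass. Itpr3, the calcium channel of taste signalling, which other epithelial cells also express, rose by 1.05 (9.02 and 8.77 against 8.02, 7.32 and 8.19). No gene passed in limma among 23 macrophage, 12 mast cell, 19 lymphocyte and plasma cell, 12 neutrophil, 17 antigen presentation and 28 interferon-responsive genes, and an unadjusted p under 0.05 was reached by 1 neutrophil and 1 interferon-responsive gene.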

How the data were processed

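RNA of tongue was measured on Affymetrix mouse genome arrays. The authors turned scanned intensities into log2 values per probe set with RMA in Partek Genomics Suite 6.6, and the deposited log2 values were used unfiltered. RMA gives arrays normalized together one distribution, so a shift shared by all genes is not visible. Arrays were grouped by the labels. A linear model of 6 groups over 23 arrays (17 residual degrees of freedom) was fitted in limma 3.58.1 under R 4.3.3, with moderation by eBayes and Benjamini-Hochberg adjustment over all probe sets. The contrasts were FC vs. BG in tongue and in *longissimus dorsi*, their difference, and BF vs. BG in tongue. The methods name ANOVA, which was run as an alternative. The fitting was tested on simulated data. A gene list was measured on the brightest probe set of each gene.

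Genes are named by the platform annotation (20380 probe sets name 1 gene, 691 several and 1555 none). The named genes were the 10 largest increases and decreases past the adjusted p without overlap, up to 4 members of each of 42 lists with the smallest adjusted p, and genes the study tabulated for tongue. Other names are examples from the lists or were chosen after their values were seen, and neither kind is among the named probe sets counted under the alternatives. The members and lists were chosen with earlier results of these data known. No control probe set is among the values, RNA quality could not be read from them, and the number of arrays limits the precision. The alternatives were fits of the tongue arrays alone or of the 5 arrays alone, no moderation, moderation with trend and robust fits, brighter probe sets, centring on array medians or quantile normalization by muscle, weights per array, a block for the replicate number, 1 probe set for each gene or every one, and leaving out each array. Promoter windows came from RefSeq (GRCm38.p6). Figures were drawn with matplotlib.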

Additional observations from a re-analysis of the deposited data

Results flagged for a closer look

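The change between FC and BG differed between tongue and *longissimus dorsi* for probe sets of 9 named genes, by the test of that difference in limma. For Foxp1, Fgfr1op2 and Ndel1 this was 1 of 7, 1 of 3 and 1 of 2 probe sets of the gene, and the others did not pass in tongue. The change was larger in tongue for Foxp1 by 1.89 (standard error 0.244, adjusted p = 0.000563), Fgfr1op2 by 1.35 (standard error 0.204, adjusted p = 0.00316), Ndel1 by 1.71 (standard error 0.265, adjusted p = 0.00359), Nisch by 1.54 (standard error 0.289, adjusted p = 0.0202) and Evpl by 1.07 (standard error 0.227, adjusted p = 0.0404). It was lower in tongue for Ccnb2 by -2.03 (standard error 0.344, adjusted p = 0.00882), Ube2c by -1.69 (standard error 0.326, adjusted p = 0.0231), Cenpa by -1.84 (standard error 0.378, adjusted p = 0.0356) and Psmd7 by -0.73 (standard error 0.152, adjusted p = 0.0359). Foxp1 rose by 2.25 in tongue and changed by 0.36 in *longissimus dorsi*, Ndel1 by 2.07 and 0.36, and Ccnb2 by -2.02 and 0.00. Mean levels of Ccnb2 were 6.04 in FC and 8.06 in BG tongue and 4.59 in both groups of *longissimus dorsi*, and those of Evpl 11.1 and 10.2 in tongue and 6.17 and 6.28 in *longissimus dorsi*. For the mitosis genes and Evpl the level in *longissimus dorsi* was thus well below that in tongue. Foxp1 and Fgfr1op2 were low there too, with means of 4.26 and 3.99 in FC and of 3.9 and 3.7 in BG.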

How the results depend on the processing

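None of the 94 named probe sets that passed reversed its direction under the alternatives run. Most of these alternatives could not have shown a reversal. In tongue, FC and BG were without overlap in 2135 of the 2139 that passed, and leaving out 1 array cannot turn such a difference. Fits that altered only the estimate of the spread kept the differences themselves. For these settings the absence of reversals is therefore no evidence of a stable direction. Among named probe sets that had not passed, some changed sign, for example Elovl3 (-1.71 to 0.157). The balance of the calls did turn, from 1160 higher and 979 lower to 940 and 1147 with median centring, 1532 and 1639 with the replicate block and 1065 and 1161 without BG replicate 3. Counts of tongue probe sets past the adjusted p were 2975 with the 5 arrays alone and 1921 without moderation, and they were 4763 with array weights, 1279 of 12393 genes with 1 probe set per gene and 125 to 2226 with each array left out. Over 2-fold, 185 of the brighter probe sets, 109 with 1 probe set per gene and 86 to 444 with each array left out passed. The difference between the muscles gave 40 without moderation, 25 with the brighter probe sets, 446 with array weights, 26 with 1 probe set per gene and 7 to 87 with each array left out.

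Lower mitosis genes numbered 8 with the tongue arrays alone, 0 with the brighter probe sets (6 genes tested), 30 with array weights and 5 to 25 with each array left out. Lower mitochondrial ribosomal proteins numbered 26 with array weights and 1 to 12 with each array left out. Lower proteasome subunits numbered 8 with the tongue arrays alone and 0 to 13, and higher clock genes 0 to 6, with each array left out. Of the 94 named probe sets past the threshold, 15 kept it when FC replicate 1 was left out, 50 for FC replicate 2, 51 for BG replicate 2, 75 for BG replicate 1 and 89 for BG replicate 3. Apart from the construction of these fits (fewer arrays or genes), the cause was not tested.

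Deviations of FC and BG arrays of the same replicate number correlated at -0.0982 and -0.0298. With 2 FC arrays, whose deviations mirror each other, this cannot decide whether the numbers pair the arrays. With the replicate block, 3171 probe sets passed the adjusted p, 180 differed between the muscles, and 28 mitosis genes and 19 mitochondrial ribosomal proteins were lower. The number of arrays limits what could be detected, and signal over background is not in these values.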

Other observations

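Long non-coding RNAs were among the increases. These genes were chosen after their values were seen. Airn, the antisense RNA of the imprinted Igf2r locus, was at 8.0 and 7.72 in FC and at 6.10, 6.23 and 6.36 in BG (1.63, adjusted p = 4.5e-05 in limma). Of 5 probe sets of Meg3, 4 were higher, by 1.09 to 1.55, and of 5 of Malat1, a nuclear speckle RNA, 3 were higher, by 1.07 to 1.50. Lncpint was higher by 1.62 in tongue and by 2.09 in *longissimus dorsi*, whereas Meg3 changed by 0.11 or less in the latter. Neat1, the scaffold of paraspeckles, was at 12.69 and 12.68 against 11.92, 11.38 and 11.54 and did not pass (adjusted p = 0.133). All 13 probe sets of these 5 RNAs had positive estimates, and 9 passed.

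Keratin-associated proteins, which build the hard keratin of hair and of filiform papillae, included 4 higher and no lower probe sets out of 31, from 26 genes, with a median of -0.21. The negative estimates went with BG replicate 1, which lay over 2-fold above each other FC and BG array in 12 of the 31, for example Krtap16-3 at 7.41 against 2.96 and 3.0 in the other BG arrays and 2.85 and 2.91 in FC. Without BG replicate 1, an alternative chosen after seeing the data, the median was 0.07. Krt1, a keratin of cornified epithelium, also stood high in that array (9.65, against 6.40 and 7.16), and so did Elovl3, a fatty acid elongase of sebaceous gland and brown fat (8.35, against 4.89 and 4.82). Krtap4-2 was at 11.38 and 11.29 in FC and at 9.81, 10.68 and 9.61 in BG (1.30, adjusted p = 0.00239), and Krtap1-5 at 8.93 and 9.23 against 7.89, 8.15 and 7.23 (1.32). These too were chosen after their values were seen.

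Changes over 2-fold fell on particular probe sets of a gene. Among 174 genes with 2 or more probe sets of which one or more changed by over 2-fold, another probe set passed the same way in 60 and the opposite way in 5. Of the 105 lower probe sets that belong to such genes, 16 (15.2%) were the brightest of their gene, and of the 96 higher ones 31 (32.3%), compared with 38.3% of all probe sets of such genes. Probe sets that name no single gene made up 18.4% of the higher ones, 8.78% of the lower ones and 9.93% of all.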
